A study of Mus musculus with 9 samples.

Results

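The genes described here build chondroitin sulfate chains and sulfate them. They are 10 genes chosen by name from the 43548 gene identifiers of the expression table. The rule uses no measured value, though the genes were chosen with earlier results of these data known. Csgalnact1, Chsy1, Chsy3 and Chpf make the chain, Chst11, Chst12, Chst13 and Chst3 sulfate it, and Papss2 and Slc26a2 provide the activated sulfate. All 10 passed the filter on low values, a mean of at least 0.5 FPKM (sequenced fragments scaled by transcript length and by the library's total) over the 9 libraries, as did 18714 genes in all.

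RNAseq was performed on mouse heads at E14.5 in 3 groups of 3 libraries, each library a pool of RNA from 3 tissue samples. The MCAGF8 cranial vault came from embryos carrying Msx2-Cre together with CAGF8, a ROSA26 allele that expresses Fgf8b from the CAG promoter after Cre recombination. Msx2-Cre acts in the surface ectoderm over the skull. The control cranial vault and the cartilaginous control cranial base came from embryos without Cre, which the labels call wildtype. The CAGF8 line was kept as a homozygous colony on an outbred Black Swiss background, so controls of such a cross would carry the unrecombined allele, and the strain is labelled mixed. The skin was peeled from the vaults before collection. Whether pools of the control vault and control base share embryos is not stated, and the p-values below measure only the spread between these pools.

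Chondroitin sulfate is a chain of alternating glucuronic acid and N-acetylgalactosamine that is attached to core proteins such as aggrecan. Csgalnact1 adds the N-acetylgalactosamine that commits the linker to chondroitin, the synthases Chsy1 and Chsy3 extend the chain, and Chpf is their partner in polymerization. Chst11, Chst12 and Chst13 are chondroitin 4-O-sulfotransferases and Chst3 is a chondroitin 6-O-sulfotransferase. Slc26a2 takes up sulfate and Papss2 converts it to PAPS, the donor used by every sulfotransferase. Sulfated chondroitin holds water in cartilage matrix, and inherited loss of CHST3, PAPSS2 or SLC26A2 causes skeletal dysplasia in humans.

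The promoters of 4 members are shown, because Papss2 and Chst11 were both highest in the library richest in cartilage transcripts, while Chst12 and Chst13 were not. They were taken from RefSeq on GRCm38.p6 and run up to the annotated start, without exonic bases of the GENCODE annotation. Capitals mark exact matches, on either strand, to the GC box GGGCGG bound by SP factors, the SOX core ACAAT, the RUNX motif TGTGGT or TATAAA. The windows are chr10:82985247-82985496 (plus strand), chr19:32595465-32595714 (plus strand), chr5:140505359-140505549 (plus strand) and chr6:90325186-90325435 (minus strand), each written 5′ to 3′ along its gene.
Chst11: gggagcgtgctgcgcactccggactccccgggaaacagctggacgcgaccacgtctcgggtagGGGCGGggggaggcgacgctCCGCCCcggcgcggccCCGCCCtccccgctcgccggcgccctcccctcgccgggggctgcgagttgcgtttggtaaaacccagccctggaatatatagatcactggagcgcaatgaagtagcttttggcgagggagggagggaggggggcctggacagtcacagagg
Papss2: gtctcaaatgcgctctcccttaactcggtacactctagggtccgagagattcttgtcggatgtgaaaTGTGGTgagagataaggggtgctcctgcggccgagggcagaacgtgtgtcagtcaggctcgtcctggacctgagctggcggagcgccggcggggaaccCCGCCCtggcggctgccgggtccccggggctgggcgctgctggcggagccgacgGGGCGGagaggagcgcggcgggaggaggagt
Chst12: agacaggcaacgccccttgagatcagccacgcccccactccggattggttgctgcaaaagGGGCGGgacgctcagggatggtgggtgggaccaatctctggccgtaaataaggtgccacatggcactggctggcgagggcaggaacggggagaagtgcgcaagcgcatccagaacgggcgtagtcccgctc
Chst13: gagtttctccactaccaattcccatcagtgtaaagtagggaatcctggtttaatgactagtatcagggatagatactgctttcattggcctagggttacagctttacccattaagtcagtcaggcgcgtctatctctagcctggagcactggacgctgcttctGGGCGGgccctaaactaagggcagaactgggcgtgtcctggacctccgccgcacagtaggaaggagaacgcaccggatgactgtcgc

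In the whole 250-base window the GC box occurred 3 times for Chst11 and 2 times for Papss2. It occurred 2 times for Chst12 and 1 time for Chst13. For Chst12 the printed 191 bases held 1 of these, and the unprinted rest of the window began in an exon. Of 32851 promoters of this length, 32.7% held the GC box. The RUNX motif was found once among these 4 windows, before Papss2, against 14.0% of all promoters. Neither the SOX core, held by 27.7% of all promoters, nor TATAAA, held by 12.4%, was found in any of the 4. The GC content of the printed bases was 70.0% for Chst11, 67.6% for Papss2, 63.4% for Chst12 and 52.8% for Chst13, beside a median of 52.4% over all promoters. The RefSeq table gave a further start for Papss2, with the window chr19:32619755-32620004 (plus strand). That window held the SOX core 1 time and none of the other motifs. The table also held Chpf, Chsy1 and Chst3, and no window was taken for Csgalnact1, Chsy3 and Slc26a2. Of the other members, Csgalnact1 lies at chr8:68356781-68735146 (minus strand), Chsy1 at chr7:66109515-66173798 (plus), Chpf at chr1:75474569-75479307 (minus) and Chst3 at chr10:60181532-60219260 (minus), in the same build. Chst13 has the shortest exons in sum of the 10 genes, 1653 bases, and Slc26a2 the longest, 12370 bases.

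Before the comparisons, the make-up of the libraries was examined, since each tissue holds several cell types. Control base replicate 2 stood apart. Its 18 cartilage markers summed to 12080 FPKM, against 1415 and 1868 FPKM in the other base libraries, 3267 to 5951 FPKM in the MCAGF8 vault and 2434 to 3555 FPKM in the control vault. Base replicates 1 and 3 held more of other tissues: 7 skeletal muscle markers summed to 9975 and 4102 FPKM there and to 1445 FPKM in replicate 2, and 9 epidermal markers to 494 and 686 FPKM against 67.2 FPKM. The 9 osteoblast and bone markers summed to 140 to 288 FPKM in the MCAGF8 vault, 1370 to 3357 FPKM in the control vault and 490 to 1376 FPKM in the base, and the 9 epidermal markers to 391 to 1020 FPKM in the MCAGF8 vault and 14.2 to 104 FPKM in the control vault. The muscle markers summed to 15.9 to 161 FPKM in the MCAGF8 vault and 764 to 4823 FPKM in the control vault. No marker of these 4 lists was at 0 in any library. Of the 7 neuronal markers measured, Sox1, Neurod1 and Neurod6 were at 0 in some libraries. Their part in the differences below was not tested, and in such bulk tissue fewer cells of a type and less RNA per cell cannot be told apart.

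The level of the chain-building genes was described first. FPKM are scaled by transcript length, so levels were set side by side between genes. The libraries still differed in their trend with exon length, as given below for the base. Chpf and Chsy1 were the most abundant of the 4 and Chsy3 the least in the mean of each group. In the MCAGF8 vault the mean FPKM was 81.9 ± 20.2 (SD, n = 3) for Chpf, 72.9 ± 11.1 for Chsy1, 17.1 ± 7.48 for Csgalnact1 and 9.92 ± 0.51 for Chsy3. Chpf and Chsy1 overlapped in that group and in the base, but in the control vault every Chpf value lay above every Chsy1 value.

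Chpf measured 77.5, 104 and 64.3 FPKM in the 3 MCAGF8 vault libraries, 101, 95.1 and 114 FPKM in the control vault, and 57.4, 51.1 and 71.8 FPKM in the control base. Every control vault library was above every base library, and the MCAGF8 vault overlapped both. The difference in log2(FPKM + 1) between base and control vault was -0.78 ± 0.21 (SE), and it missed the threshold (limma, adjusted p = 0.121). A gene passed the test at p under 0.05 with an adjusted p under 0.1, adjusted over all genes tested.

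Chsy1 measured 71.0, 84.7 and 62.9 FPKM in the MCAGF8 vault, 58.4, 68.1 and 69.4 FPKM in the control vault and 46.3, 60.6 and 58.6 FPKM in the base. The MCAGF8 vault stayed above the base without overlap, though by a small margin, and no comparison of Chsy1 passed the test. Chsy3, the less abundant synthase, measured 10.5, 9.88 and 9.43 FPKM in the MCAGF8 vault, 9.37, 9.29 and 9.19 FPKM in the control vault and 5.46, 7.42 and 7.43 FPKM in the base. The 3 groups of Chsy3 were ordered without overlap, with the base lowest. Between the vaults its difference was only 0.09 (95% interval -0.34 to 0.51) in log2(FPKM + 1). Against the base, the MCAGF8 vault was 0.50 ± 0.19 (SE) higher, which missed the threshold (limma, adjusted p = 0.184). The ratio of Chsy1 to Chsy3 FPKM varied little, from 6.24 to 8.58 over the 9 libraries.

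Csgalnact1, the initiating enzyme, differed more within groups than between them. It measured 12.4, 13.2 and 25.8 FPKM in the MCAGF8 vault, 11.5, 17.2 and 8.83 FPKM in the control vault and 12.2, 43.5 and 10.4 FPKM in the base. The highest value was in base replicate 2, and the 3 groups overlapped. A processed pseudogene in an intron on the opposite strand averaged 22.0 FPKM, and no exon of it overlaps those of Csgalnact1.

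**Figure D1:**
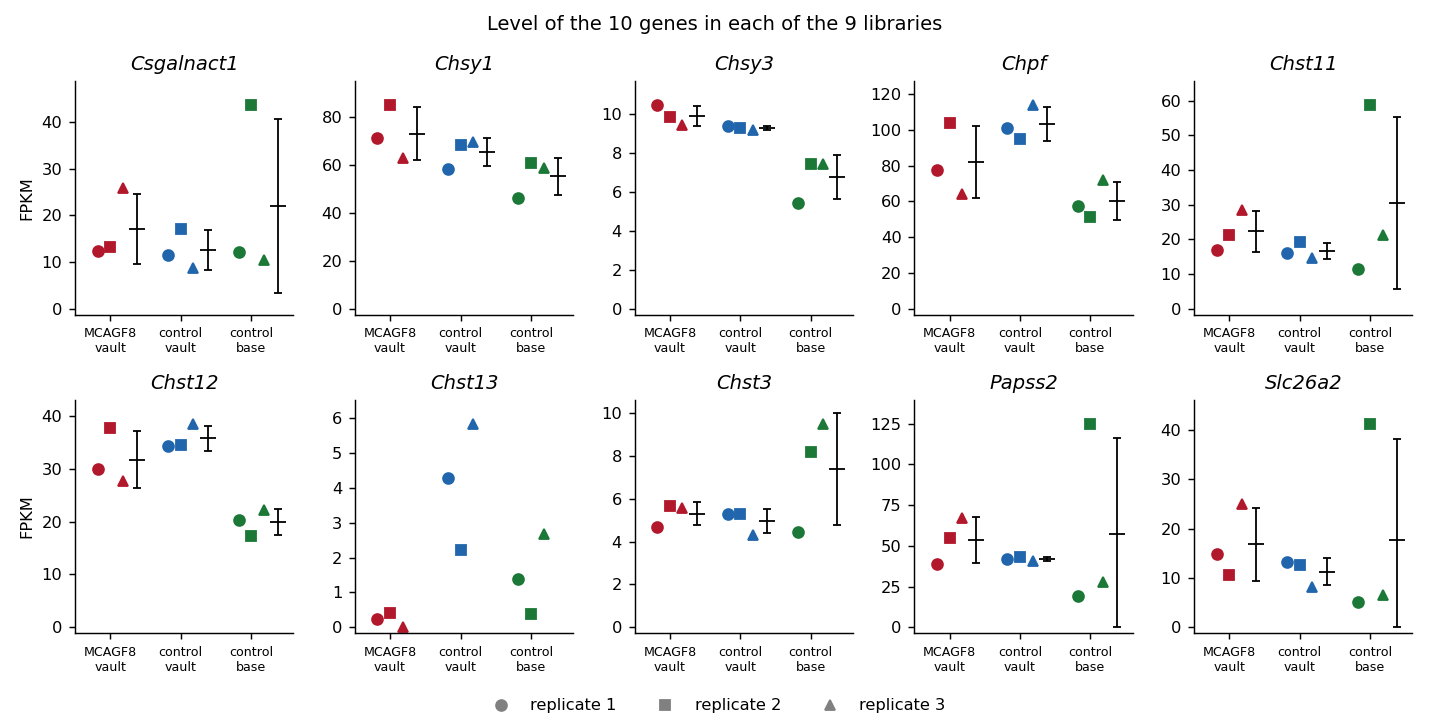
FPKM (linear axis) of each of the 10 genes in the MCAGF8 vault, control vault and control base. Each point is 1 library (circle, square and triangle for replicates 1, 2 and 3), and the black bar is the mean ± SD of 3, cut off at 0 and not drawn for Chst13. Base replicate 2 is the highest library for Csgalnact1, Chst11, Papss2 and Slc26a2, Chst12 is lowest in the base, and Chst13 is near 0 in the MCAGF8 vault.

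Among the 4-O-sulfotransferases, Chst12 separated the vaults from the base, Chst13 separated the vaults from each other, and Chst11 separated no pair of groups. Chst12 measured 29.9, 37.7 and 27.6 FPKM in the MCAGF8 vault, 34.3, 34.5 and 38.5 FPKM in the control vault and 20.3, 17.3 and 22.3 FPKM in the base. All 6 vault libraries were above all 3 base libraries, and the vaults overlapped each other. Chst12 was 1.79-fold higher in the control vault than in the base by the ratio of mean FPKM, and the base was lower by 0.82 ± 0.18 (SE) in log2(FPKM + 1) (limma, adjusted p = 0.0636). It was 1.59-fold higher in the MCAGF8 vault than in the base, a difference of 0.64 ± 0.18 (SE) (limma, adjusted p = 0.0802). Between the vaults the difference was -0.18 (95% interval -0.58 to 0.23) and did not pass.

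The direction of both Chst12 calls held whichever library was left out, from 0.51 to 0.73 for the MCAGF8 vault against the base and from -0.90 to -0.72 for the base against the control vault. Against the MCAGF8 vault the call was lost without base replicate 1 (limma, adjusted p = 0.113) or without any 1 of the 6 vault libraries (adjusted p from 0.123 to 0.225). Against the control vault it was lost without MCAGF8 replicate 1 or 3 (limma, adjusted p = 0.133 and 0.103) or without any 1 of the 3 control vault libraries (adjusted p from 0.185 to 0.256).

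Chst13, the least abundant member in the mean of each group, measured 0.25, 0.42 and 0.00 FPKM in the MCAGF8 vault, 4.28, 2.21 and 5.83 FPKM in the control vault and 1.38, 0.37 and 2.67 FPKM in the base. Each control vault library was above each MCAGF8 vault library, while the base overlapped both. Chst13 fell in the MCAGF8 vault relative to the control vault, with a difference of -2.01 ± 0.40 (SE) in log2(FPKM + 1) and a 95% interval from -2.90 to -1.12 (limma, adjusted p = 0.0969). In the same comparison all 7 muscle markers were below the control vault without overlap and 4 passed the test (median difference -4.20), all 9 osteoblast markers had a lower fitted value and 6 passed (median -3.79), and all 9 epidermal markers had a higher one and 2 passed (median 2.71), and the part of these tissues in the Chst13 difference was not tested. It was lower in the MCAGF8 vault under all 19 alternatives that gave a value, but 11 of them lost the call. Among these were the unmoderated linear model (adjusted p = 0.402) and the fits without base replicate 1 (limma, adjusted p = 0.152), without MCAGF8 replicate 1, 2 or 3 (adjusted p = 0.423, 0.289 and 0.325), or without control vault replicate 1 or 3 (adjusted p = 0.288 and 0.313). Chst13 was 0.92 ± 0.40 (SE) lower in the MCAGF8 vault than in the base on the same scale, which missed the threshold (limma, adjusted p = 0.240) with all libraries. Without base replicate 2 this difference was -1.29 ± 0.36 and passed (limma, adjusted p = 0.0441). That library held the lowest Chst13 of the base and was singled out after its values were seen, so this call is not independent support.

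Chst11, whose loss in mice disrupts the growth plate, measured 17.0, 21.3 and 28.6 FPKM in the MCAGF8 vault, 16.0, 19.3 and 14.6 FPKM in the control vault and 11.4, 58.6 and 21.4 FPKM in the base. The lowest and the highest of the 9 values were both in the base. The MCAGF8 vault was 0.38 higher than the control vault in log2(FPKM + 1), with a 95% interval from -0.69 to 1.45, and did not pass. The spread behind this interval came from all groups, base replicate 2 included.

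Because the 3 enzymes transfer sulfate to the same position, their FPKM were also set against each other within each library. Chst12 made up 49.1 to 63.5% of their sum in the MCAGF8 vault and 61.7 to 65.3% in the control vault. In base replicate 2 Chst12 was 22.7% and Chst11 76.8%, so their order was the reverse of that in the other base libraries, in which Chst12 was 61.4 and 48.1%. The ratio of Chst11 to Chst12 was 0.567, 0.565 and 1.04 in the MCAGF8 vault, 0.467, 0.558 and 0.379 in the control vault and 0.561, 3.39 and 0.960 in the base. Each MCAGF8 vault library had a higher ratio than each control vault library, by a narrow margin at its closest, and no test was made of it. The exons of Chst11 sum to 5527 bases and those of Chst12 to 2362, and the part of length in this ratio was not tested. Chst13 made up 3.95 to 9.91% of the sum in the control vault and at most 0.708% in the MCAGF8 vault.

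**Figure D2:**
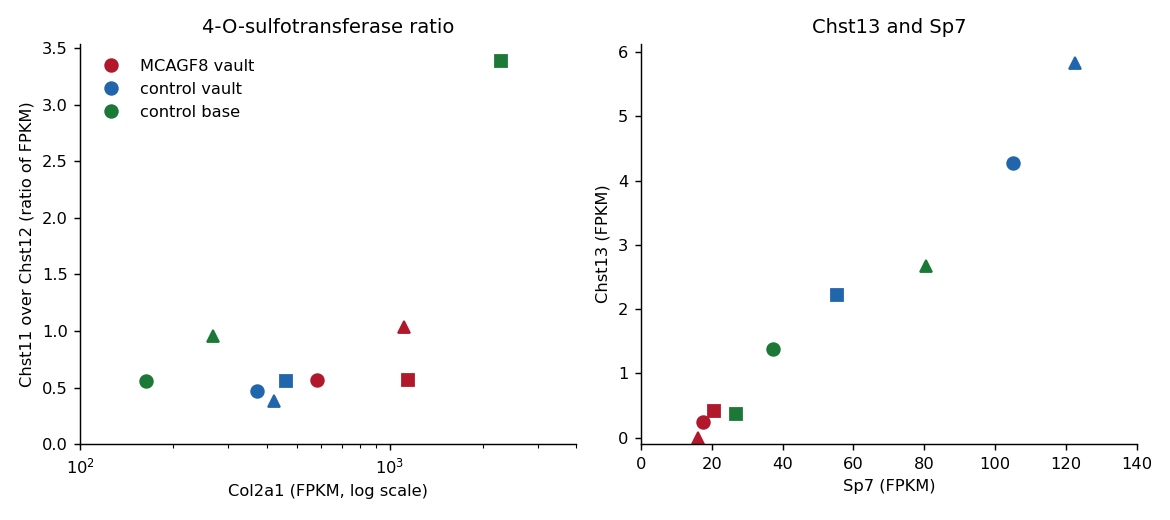
Left, ratio of Chst11 to Chst12 FPKM (linear axis) against Col2a1 FPKM (log axis). Right, Chst13 FPKM against Sp7 FPKM (linear axes). Each point is 1 of the 9 libraries, with shapes for replicates as in the plot of levels. The ratio is between 0.379 and 1.04 in 8 libraries and 3.39 in base replicate 2, and the 3 MCAGF8 vault libraries have the lowest Sp7 values, 16.0 to 20.6 FPKM.

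Chst3, the 6-O-sulfotransferase, was low throughout. It measured 4.68, 5.67 and 5.55 FPKM in the MCAGF8 vault, 5.26, 5.30 and 4.30 FPKM in the control vault and 4.46, 8.18 and 9.49 FPKM in the base. Base replicates 2 and 3 were the highest, base replicate 1 lay within the vaults, and no comparison passed. The summed FPKM of Chst11, Chst12 and Chst13 was 5.88 to 6.63 times that of Chst3 and its paralog Chst7 in the control vault, 4.77 to 6.06 times in the MCAGF8 vault, and 3.67, 6.94 and 3.54 times in the base.

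Papss2 and Slc26a2, the pair that supplies sulfate, varied most in the base. Papss2 measured 38.6, 54.7 and 66.9 FPKM in the MCAGF8 vault, 41.9, 43.2 and 40.5 FPKM in the control vault and 19.4, 125 and 27.8 FPKM in the base. Slc26a2 measured 14.9, 10.7 and 25.1 FPKM in the MCAGF8 vault, 13.2, 12.5 and 8.18 FPKM in the control vault and 5.07, 41.3 and 6.63 FPKM in the base. For both genes base replicate 2 was the highest of the 9 libraries and base replicates 1 and 3 the lowest. Relative to the control vault, the MCAGF8 vault was 0.31 higher for Papss2 (95% interval -0.94 to 1.56) and 0.48 higher for Slc26a2 (-0.96 to 1.93) in log2(FPKM + 1), and neither passed. The fit takes 1 spread per gene from all groups, base replicate 2 included.

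Papss1, the other PAPS synthase and the most abundant gene of sulfate supply, measured 74.4 to 119 FPKM in the MCAGF8 vault, 79.6 to 112 FPKM in the control vault and 68.7 to 108 FPKM in the base. The ratio of Papss2 to Papss1 was 0.493, 0.459 and 0.899 in the MCAGF8 vault, 0.526, 0.50 and 0.361 in the control vault and 0.259, 1.82 and 0.257 in the base. Papss2 thus exceeded Papss1 in 1 library of the 9, base replicate 2.

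A comparison of base replicate 2 with the mean of base replicates 1 and 3 divided the members. Slc26a2 was 7.05 times as high in replicate 2, Papss2 5.29 times, Csgalnact1 3.86 times and Chst11 3.58 times, and Col2a1 and Acan, the collagen and proteoglycan core of cartilage, 10.6 and 12.3 times. In contrast, Chst3, Chsy1 and Chsy3 were 1.17, 1.15 and 1.15 times as high, and Chst12, Chpf and Chst13 were lower in replicate 2, at 0.813, 0.79 and 0.182 times. Over all tested genes the median ratio was 0.851, and 9.86% were at least 2 times as high in replicate 2. This is a comparison of 1 pool with 2 and carries no test. The base libraries also differed by gene length: the slope of each library's deviation from the 9-library mean on log2 exon length was 0.0964 in base replicate 2, -0.213 in replicate 1 and -0.0215 in replicate 3. Slc26a2 has the longest exons of the 10 members, followed by Chsy3 (7228 bases), Chst3 (6497), Chst11 (5527) and Csgalnact1 (5093). Next come Chsy1 (4176), Chpf (3856), Papss2 (3721), Chst12 (2362) and Chst13 (1653). The part of length in these ratios was not tested.

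**Figure D3:**
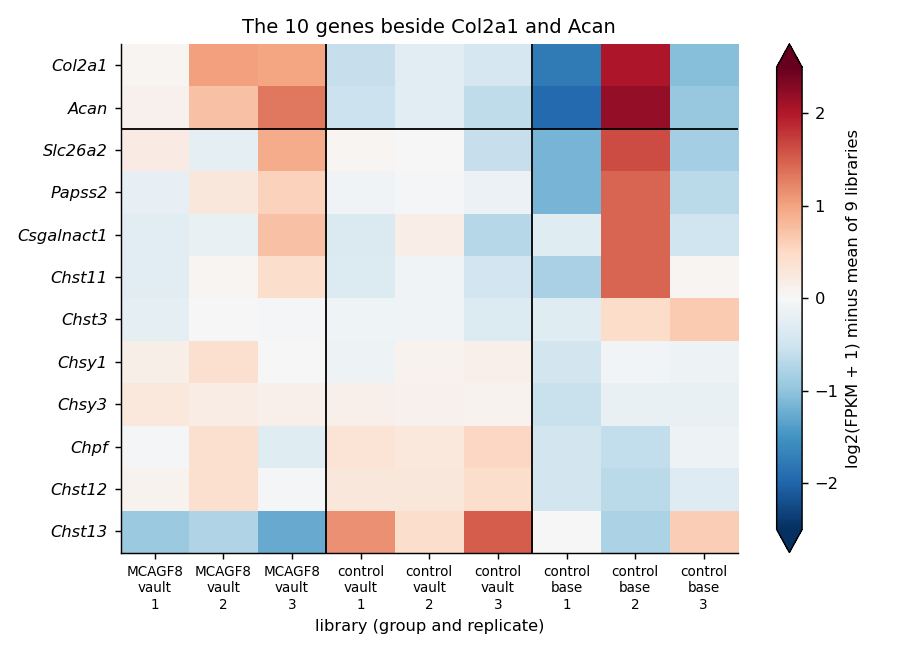
Level of Col2a1, Acan and the 10 members in each library as log2(FPKM + 1) minus the mean of the 9 libraries (color scale, red above and blue below). Columns are the libraries by group, separated by lines. Slc26a2, Papss2, Csgalnact1 and Chst11 are reddest in base replicate 2, as are Col2a1 and Acan, while Chst12, Chpf and Chst13 are below their means there.

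To see which synthesis genes differed between the mutant and control vault, the 10 members were then read together. In the MCAGF8 vault relative to the control vault, 1 of 10 members passed the test, Chst13, which was lower, and 0.604% of all genes tested passed. The same 1 member had an unadjusted p under 0.05, beside 6.34% of all genes. The libraries of 2 members did not overlap, Chsy3 above and Chst13 below, beside 19.2% of all genes. The median difference of the members was 0.12 in log2(FPKM + 1), with 7 higher and 3 lower, and that of all genes was -0.01. Over the same vaults Col2a1 was 2.26-fold and Acan 2.47-fold higher by mean FPKM, without overlap, and neither passed the test (limma, adjusted p = 0.969 for each). Col2a1 measured 583, 1146 and 1114 FPKM in the MCAGF8 vault and 373, 462 and 421 FPKM in the control vault. In the base it measured 163, 2292 and 268 FPKM. The spread used to test Col2a1 and Acan between the vaults also came from all groups, base replicate 2 included. The missed threshold is therefore not evidence that the vaults were alike in these genes. With its own test, the paper reports Col2a1 as significantly higher in the MCAGF8 vault than in the control vault.

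Relative to the control base, 1 of 10 members passed in the MCAGF8 vault, Chst12, which was higher, beside 8.39% of all genes. An unadjusted p under 0.05 was found for 3 members, Chst12 and Chsy3 higher and Chst13 lower, and for 19.6% of all genes. The libraries of Chsy1, Chsy3 and Chst12 were all above the base, and 21.9% of all genes did not overlap in either direction. The median difference of the members was 0.37, with 6 higher and 4 lower, and that of all genes was -0.07. Without base replicate 2, 5 of the members passed, Papss2, Slc26a2, Chst12 and Chsy3 higher and Chst13 lower, beside 24.5% of all genes. Papss2 was then 1.13 ± 0.25 (SE) higher and Slc26a2 1.31 ± 0.35 higher in log2(FPKM + 1) (limma, adjusted p = 0.0207 and 0.0400). With all libraries these values were 0.34 ± 0.56 and 0.43 ± 0.65. Base replicate 2 was singled out after its values were seen, as the highest of the 9 libraries for both genes. The calls without it are therefore not independent support. The base pools left were those lower in cartilage markers, which summed to 1415 and 1868 FPKM there and to 12080 FPKM in base replicate 2. Csgalnact1 and Chst11 changed sign without that library, from -0.13 to 0.49 and from -0.16 to 0.45, and did not pass. Chsy3 was 0.56 ± 0.20 higher without that library (limma, adjusted p = 0.0955).

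Between the control tissues, 1 of 10 members passed, Chst12, which was lower in the base, beside 3.06% of all genes. An unadjusted p under 0.05 was found for 3 members, Chpf, Chst12 and Chst13, each lower in the base, and for 12.8% of all genes. Chsy3, Chpf and Chst12 lay below the control vault in every base library, and 15.5% of all genes did not overlap. The median difference was -0.14, with 4 members higher and 6 lower in the base, and that of all genes was 0.07. Without base replicate 2 Chst12 was again the member that passed, at -0.72 ± 0.18 (SE) (limma, adjusted p = 0.0694), beside 7.06% of all genes. Papss2 and Slc26a2 were then -0.82 ± 0.25 and -0.83 ± 0.35 in the base relative to the control vault and did not pass (limma, adjusted p = 0.117 and 0.233). The 3 comparisons share their groups in pairs, so they are not independent of each other.

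**Figure D4:**
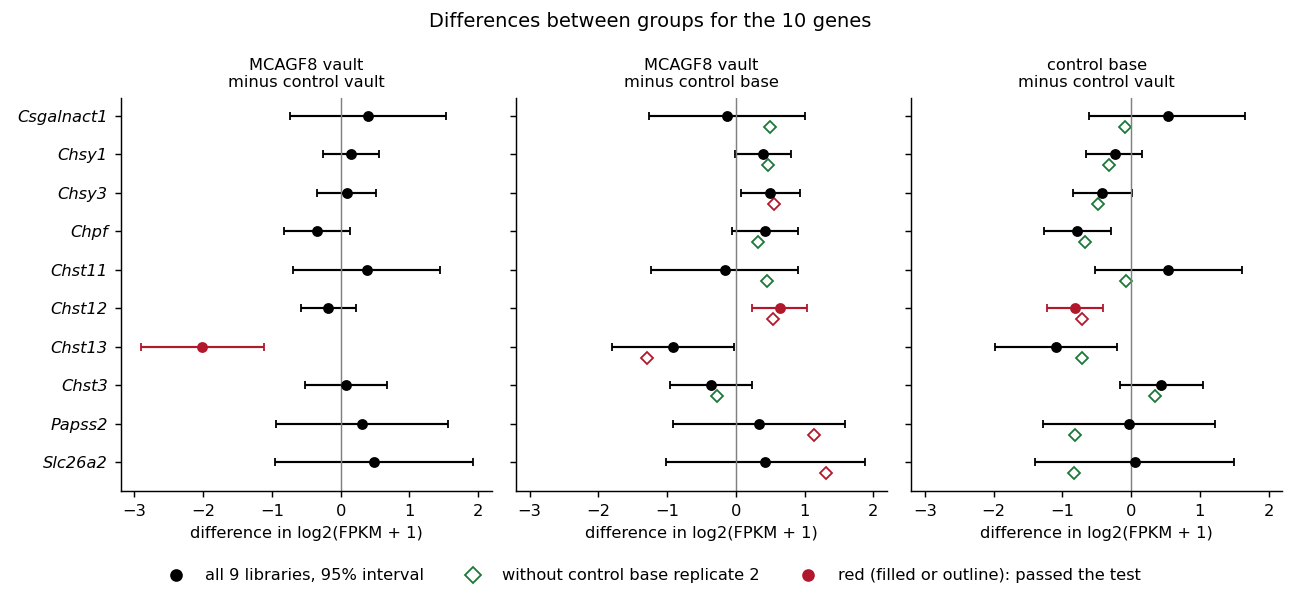
Difference in log2(FPKM + 1) for each member in the 3 comparisons. Filled points are the fit to all 9 libraries with 95% intervals, open diamonds the fit without control base replicate 2, and red marks a difference that passed the test. Chst13 is red at -2.01 between the vaults, Chst12 is red in both comparisons with the base, and the diamonds for Papss2 and Slc26a2 lie far from their filled points.

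The genes whose pattern was most like that of the 2 members that passed were found by Pearson's r of log2(FPKM + 1) over the 9 libraries, as a description, since libraries of a group share their tissue. For Chst13 they were Sp7 (r = 0.987), a transcription factor of osteoblasts, Tcf7 (r = 0.985), a mediator of Wnt signaling, and Dapk2 (r = 0.973). Sp7 measured 17.5, 20.6 and 16.0 FPKM in the MCAGF8 vault, 105, 55.4 and 123 FPKM in the control vault and 37.4, 26.9 and 80.5 FPKM in the base. The order of the libraries within each control tissue was the same for Chst13 and Sp7, replicate 3 highest and replicate 2 lowest. For Chst12 they were Cavin1 (r = 0.990), a coat protein of caveolae, Tmem37 (r = 0.988) and Serpinf1 (r = 0.988), which encodes the secreted factor PEDF. Serpinf1 measured 698, 977 and 585 FPKM in the MCAGF8 vault, 872, 714 and 1066 FPKM in the control vault and 374, 251 and 414 FPKM in the base.

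The other 40 genes of the pathway measured here fall into the linker, the rest of chain synthesis and sulfation, sulfate and nucleotide sugar supply, and degradation. Between the vaults 0 of 40 passed the test (limma), beside 0.604% of all genes, and 1 had an unadjusted p under 0.05, beside 6.34%. The unmoderated linear model called 0 of all genes, and the median difference of the 40 was -0.02. The MCAGF8 vault was above the control vault in every library for 5 genes and below it for 2, and 19.2% of all genes did not overlap in either direction. Against the base, 1 of 40 passed in the MCAGF8 vault, Chst14, beside 8.39% of all genes. At an unadjusted p under 0.05, 10 were higher and 1 lower, beside 19.6% of all genes. The unmoderated model also called 1 there, but it was Slc35d2, a nucleotide sugar transporter named here after its values were seen, and not Chst14 (adjusted p = 0.175). Between base and control vault 0 of 40 passed (limma), beside 3.06% of all genes, and the unmoderated model called 0 of the 40. An unadjusted p under 0.05 was found for 10, each lower in the base, and for 12.8% of all genes.

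Chst14, the dermatan 4-O-sulfotransferase and the most abundant of the other sulfation genes, measured 62.2, 97.1 and 57.3 FPKM in the MCAGF8 vault, 56.4, 58.9 and 66.3 FPKM in the control vault and 40.5, 33.1 and 49.3 FPKM in the base. As for Chst12, all vault libraries were above all base libraries. It was 0.78 ± 0.23 (SE) higher in the MCAGF8 vault than in the base in log2(FPKM + 1) (limma, adjusted p = 0.0948), a call that was lost without any 1 of 8 libraries, the exception being base replicate 3 (adjusted p from 0.102 to 0.239). The other 5 genes of sulfation and epimerization were likewise higher in the MCAGF8 vault than in the base by their fitted values and did not pass. All 6 genes of this list were also lower in the base than in the control vault by their fitted values.

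The genes whose libraries did not overlap between the vaults were spread over several steps, and none passed the test there. They are listed as a description, since 19.2% of all genes did not overlap either. In linker synthesis Xylt2, a xylosyltransferase, measured 42.0 to 45.1 FPKM in the MCAGF8 vault and 39.2 to 41.1 FPKM in the control vault. The sulfate transporter Slc26a1 measured 1.15 to 1.53 FPKM against 0.75 to 0.956 FPKM, far below Slc26a2. In nucleotide sugar supply, Ugdh, which makes UDP-glucuronic acid and was the most abundant of its list, measured 132 to 146 FPKM against 116 to 123 FPKM. Uap1, which makes UDP-N-acetylglucosamine, lay the other way, at 59.4 to 63.6 FPKM in the MCAGF8 vault against 65.5 to 78.4 FPKM in the control vault.

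Of the 11 degradation genes, Hyal1, a lysosomal hyaluronidase, measured 10.9 to 12.4 FPKM in the MCAGF8 vault and 6.74 to 8.08 FPKM in the control vault, a difference of 0.58 ± 0.22 (SE) in log2(FPKM + 1) (limma, adjusted p = 0.599). Ids, iduronate 2-sulfatase, measured 36.6 to 40.2 FPKM against 23.6 to 26.9 FPKM. All 11 degradation genes had a higher fitted value in the MCAGF8 vault than in the base, and 0 passed (limma) or were called by the unmoderated model. An unadjusted p under 0.05 was found for 5 of them and for 19.6% of all genes. The control vault differed from the base in the same way: 10 of the 11 were lower in the base, 5 at an unadjusted p under 0.05, beside 12.8% of all genes. Between the vaults the median difference of the 11 was 0.08. The most abundant genes of the remaining lists, by the mean of the 9 libraries, were Hyal2 in degradation, at 102 to 183 FPKM in the MCAGF8 vault and 119 to 162 FPKM in the control vault, B3gat3 in the linker, at 47.7 to 65.3 and 57.2 to 71.0 FPKM (in the MCAGF8 vault Fam20b had a higher mean, 55.2 against 53.6 FPKM, with overlap), and Chpf2 in chain synthesis, at 42.8 to 57.5 and 45.3 to 48.3 FPKM.

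**Figure D5:**
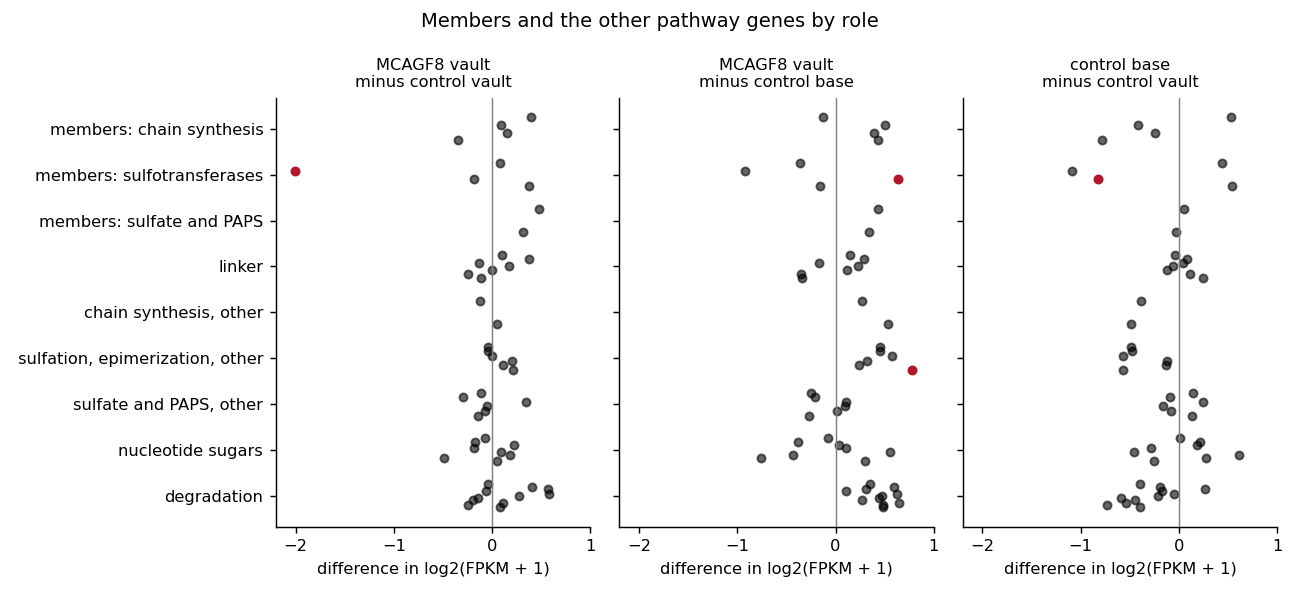
Difference in log2(FPKM + 1) of each member and each of the 40 other pathway genes (1 point a gene), by role, in the 3 comparisons. Red points passed the test. Between the vaults Chst13 lies apart at -2.01 and no other gene passed. All 11 degradation genes are above 0 in the MCAGF8 vault against the base, and 10 of them are below 0 in the base against the control vault.

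The core proteins that carry these chains were counted for comparison. Of 13 core protein genes, 0 passed between the vaults (limma), beside 0.604% of all genes, and the unmoderated model called 0. An unadjusted p under 0.05 was found for 1, lower in the MCAGF8 vault, and for 6.34% of all genes. Their summed level was 2486 to 2922 FPKM in the MCAGF8 vault, 2233 to 2459 FPKM in the control vault and 1466, 2741 and 1248 FPKM in the base. The summed level of the core proteins was thus higher in each MCAGF8 vault library than in each control vault library, by a narrow margin at its closest. By gene, 8 of the 13 had a higher fitted value in the MCAGF8 vault and 5 a lower one, with a median difference of 0.19 in log2(FPKM + 1). Without overlap, 3 were above the control vault and 1 below, beside 19.2% of all genes. Against the base, 1 passed as higher and 2 as lower in the MCAGF8 vault (limma), beside 8.39% of all genes. Between the control tissues, 1 passed as higher and 2 as lower in the base, beside 3.06%. Base replicate 2 was again the highest of its tissue in the summed level.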

How the data were processed

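RNAseq was analysed in 9 libraries, 3 each of the MCAGF8 cranial vault, control cranial vault and control cranial base, grouped by the labels. Stranded mRNA libraries were read from a single end. The authors aligned the reads with gSNAP, estimated expression with Cufflinks, and deposited FPKM per Ensembl gene as 1 table. The sources used here give no genome build, annotation or program versions. They also give no read numbers. The depth is therefore unknown, counting intervals cannot be given, and the precision is that of 3 pools.

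From the deposited FPKM, 63 repeated rows were summed by identifier, and 9 genes with the placeholder 999999999 were left out, no member among them. FPKM summed to 793249 to 1315982 per library and were not rescaled. The 18714 genes that averaged 0.5 FPKM or more were analysed as log2(FPKM + 1) with limma 3.58.1 in R 4.3.3 (1 mean per group, eBayes with trend, two-sided, Benjamini-Hochberg over all genes tested). A fold on this scale understates the change of low genes. The study's own test was an ANOVA in R, of which this is the moderated form. Tables and plots used Python 3.11.15, pandas 2.3.3, numpy 2.4.6 and matplotlib 3.10.9.

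Symbols, positions and exon lengths came from GENCODE M21 (GRCm38.p6) by Ensembl identifier, matching 42384 of 43548. The members and all lists of genes were chosen with earlier results of these data known. Named were the 10 members, other pathway genes that passed any test, did not overlap between the vaults or were the most abundant of their list, Col2a1 and Acan, and the 3 genes most like each member that passed. A pathway gene that this rule names is not reported here. Alternatives were the pseudocount, the filter, normalization, the groups fitted, the replicate block, an unmoderated model and leaving out each library, and, added after seeing the data, 2 corrections for gene length.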

Additional observations from a re-analysis of the deposited data

How the results depend on the processing

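Of 597 values of the members under 20 alternatives, 534 kept their direction and their side of the threshold, 27 lost the call, 14 gained it and 22 changed sign. The causes were not tested. With all libraries 1 member passed in each comparison. Between the vaults 0 passed with a pseudocount of 0.01, with no filter, with a mean FPKM of at least 5 (which removed Chst13), in the unmoderated model, with the length slope as covariate or at an adjusted p under 0.05. MCAGF8 vault against base gave 2 members under quantile normalization and in the unmoderated model, 3 with the length and GC trend removed, 0 when only the 2 groups compared were fitted, 0 at an adjusted p under 0.05 and 3 at an unadjusted p under 0.05. Between the control tissues 2 passed under quantile normalization, with every library rescaled to a common sum or with the length slope, 4 with the length and GC trend removed, 0 with only the 2 groups, 0 at an adjusted p under 0.05 and 3 at an unadjusted p under 0.05. Leaving out 1 library gave 0 to 1, 0 to 5 and 0 to 1 members in the 3 comparisons.

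Over all genes 113 passed between the vaults, 1571 between MCAGF8 vault and base and 573 between the control tissues. Leaving out 1 library gave 11 to 231, 559 to 4580 and 132 to 1322. Between the vaults the count was 191 and 192 with a pseudocount of 0.1 and 0.01, 66 with no filter, 71 with a mean of at least 5, 174 with only the 2 groups, 0 unmoderated, 173 with the length and GC trend removed, 35 at an adjusted p under 0.05 and 1186 at an unadjusted p under 0.05. For MCAGF8 vault against base and for the control tissues it was 834 and 291 with a mean of at least 5, 875 and 108 with only the 2 groups, 869 and 257 unmoderated, 2949 and 1594 with the length and GC trend removed, 941 and 255 at an adjusted p under 0.05 and 3675 and 2396 at an unadjusted p under 0.05, and 1388 genes passed between the control tissues with the length slope.

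With the replicate number as a block, 19, 918 and 234 genes and 0 members passed in the 3 comparisons. The numbers were not found to pair the libraries: r between the deviations of same-numbered libraries ran from -0.549 to 0.37, and 2 of 9 pairs were over 0.1.

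Signs changed for Chst11, Csgalnact1, Papss2 and Slc26a2 in both comparisons with the base and for Chst3 between the vaults. MCAGF8 vault against base was 0.06 for Csgalnact1 and 0.04 for Chst11 with a common sum, and -0.22 for Papss2 and -0.30 for Slc26a2 with the length slope. Base against control vault was 0.03 for Papss2 and -0.07 for Slc26a2 under quantile normalization, and 0.23 for Papss2 with the length slope. Chst3 between the vaults was -0.02 with the length slope and -0.01 with the length and GC trend removed. Leaving out 1 library moved MCAGF8 vault against base from -0.68 to 0.45 for Chst11, -0.49 to 0.49 for Csgalnact1, -0.18 to 1.13 for Papss2 and -0.09 to 1.31 for Slc26a2. It moved base against control vault from -0.07 to 1.06 for Chst11, -0.09 to 0.89 for Csgalnact1, -0.82 to 0.49 for Papss2 and -0.83 to 0.57 for Slc26a2. The depth is unknown, so the precision of Chst13, the member at the lowest FPKM, rests on 3 pools a group alone.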
